A study of Mus musculus with 3 samples.

Results

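Cells high in rod transcripts were described here within a single-cell RNA data set of sorted mouse Müller glia. The cells were chosen by their Gngt1 and Pde6h counts. A cell belonged to them when Gngt1, the gamma subunit of transducin, the G protein of the rod light response, made up at least 5 of every 10000 unique molecular identifiers (UMIs, counted molecules) of the cell and the cone gene Pde6h less than 5. This rule took 1451 of the 24672 cells that passed a cell filter, with 538 in run 1, 415 in run 2 and 498 in run 3. They are called rod-high cells below. The cells they were set against, called low-Gngt1 cells, had Gngt1 under 1, Pde6h under 5 and Igfbp2 under 2 per 10000, and numbered 9837.

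All cells came from adult mouse retinas of the genotype Yap5SA+/tg, ROSA26R-tdTomato+/tg and Glast-CreERT+/tg. In these mice Cre, driven by the Glast promoter, which is active in Müller glia and also in astrocytes, switches on, after tamoxifen, a red reporter and Yap5SA, a form of YAP that Hippo kinases cannot restrain. The retinas had been injured by N-methyl-D-aspartate, which kills inner retinal neurons, and tdTomato-positive cells were sorted after 2 days and loaded on 10X Chromium droplets in 3 runs. Both classes of cells share this genotype, injury and sort, there is no control genotype or uninjured retina among the labels, and the labels do not say that the runs are separate animals, so p-values measure the spread between runs, which may be technical.

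Rods are the photoreceptors of dim-light vision. Light leads to the activation of transducin in their outer segments, transducin activates a phosphodiesterase, and cyclic nucleotide-gated channels close. Müller glia span the retina, wrap the rod cell bodies, recycle glutamate through glutamine synthetase (Glul) and bind retinoids through Rlbp1.

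The runs held 7670, 8802 and 8223 cells with 94858762, 122888236 and 97032672 UMIs. Rod-high cells contributed 4691633, 3910872 and 4289121 UMIs in runs 1, 2 and 3, and low-Gngt1 cells 31032420, 38333010 and 29558678. Pairs of runs shared 83 to 108 barcodes, and the rod list changed by a median of 3.07 (log2) without those cells, against 3.06 with them.

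Rod genes are switched on by the transcription factors CRX and NRL, so the stretch of 250 bases before and 50 bases after the start was searched in RefSeq (GRCm38.p6) for the CRX core TAATCC and the NRL core TGCTGA, on both strands. Of the 17 genes of the rod list, 12 had an entry. The CRX core was in 5 of these 12 genes and in 8.14% of all 27025 genes (7.06% of all promoters). It was also in 7 of 14 genes that rods share with cones, 2 of 8 cone genes and 3 of 13 Müller genes, so it was not particular to the rod list. The NRL core was in 2 of the 12 rod-list genes and in 21.7% of all genes (19.5% of all promoters). The promoters of Gngt1 (chr6:3993758-3994057, plus strand), which set the class, and Sag (chr1:87803430-87803729, plus strand), a gene the class was not set by, are shown with the matches in capitals. GGATTA is the CRX core read on the other strand.
Gngt1: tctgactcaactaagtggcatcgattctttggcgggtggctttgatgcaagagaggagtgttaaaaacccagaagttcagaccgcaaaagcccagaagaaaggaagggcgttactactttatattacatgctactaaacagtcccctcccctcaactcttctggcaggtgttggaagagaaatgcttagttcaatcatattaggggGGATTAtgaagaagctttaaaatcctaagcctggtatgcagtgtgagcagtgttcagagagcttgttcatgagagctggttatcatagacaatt
Sag: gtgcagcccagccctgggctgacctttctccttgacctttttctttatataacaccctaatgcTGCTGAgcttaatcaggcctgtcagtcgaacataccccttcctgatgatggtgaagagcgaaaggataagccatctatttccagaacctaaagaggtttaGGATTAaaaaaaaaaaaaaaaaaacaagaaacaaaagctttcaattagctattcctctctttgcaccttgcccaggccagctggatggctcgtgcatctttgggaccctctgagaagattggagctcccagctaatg
In these windows the match in Gngt1 lies at position -44 from the start. Sag has the CRX core at -87 and the NRL core at -187. Neither sequence was found in the windows of Pdc and Nrl. A match is a description of the letters only.

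Gngt1 chose the cells and its level is given without a test. The median rod-high cell held 8.10, 6.98 and 7.10 Gngt1 UMIs per 10000 in runs 1, 2 and 3, and the highest held 57.2. The counts behind this are small, with a median of 7 Gngt1 UMIs in a cell, and 103 of the cells rested on 2 or 3. The limit cut through a continuous range. There were 408 rod-high cells at 5 to 6 per 10000, and 640 cells lay just outside at 4 to 5. The other rod genes summed to 5825, 4793 and 4664 CPM (counts scaled to a common total) just inside the limit in runs 1, 2 and 3, and to 5074, 3916 and 3639 CPM just outside it. Rod-high cells made up 5.93% ± 1.16 of the filtered cells (SD, n = 3 runs). To read Gngt1 in UMIs that had not chosen the cells, the UMIs of each cell were split at random in equal parts, with the classes set on one part and the other part counted. In the counted part Gngt1 stood at 685, 499 and 504 CPM in rod-high cells, against 49.7, 72.3 and 74.9 CPM in low-Gngt1 cells.

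The other rod genes were higher in rod-high than in low-Gngt1 cells in every run. For each run, the UMIs of all cells of a class were added up and tested with edgeR's quasi-likelihood test with the run as a block, at a Benjamini-Hochberg adjusted p under 0.05, and Gngt1, Pde6h and Igfbp2 were left out because they set the classes. Of 13329 genes, 1356 were called higher (10.2%) and 1286 lower (9.65%), or 19.8% in either direction, with 4330 at an unadjusted p under 0.05. All 16 tested genes of the rod list rose. Their median change was 3.06 on the log2 scale, a ratio of 8.35, against -0.02 for all genes. The classes were cut on a rod gene, so the p-values say how steadily other genes differed between such classes, and are not independent evidence that rod genes travel together.

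Gnat1, the alpha subunit of rod transducin (protein-coding, chr9:107674474-107679712, minus strand, mm10), stood at 552, 414 and 430 CPM in rod-high cells of runs 1, 2 and 3, against 34.2, 60.6 and 48.4 CPM in low-Gngt1 cells (log2 change 3.23, SE 0.19, edgeR adjusted p = 3.02e-06). Sag, the rod arrestin that ends the light response, stood at 793, 571 and 720 CPM in rod-high cells, against 59.9, 79.1 and 99.9 CPM in low-Gngt1 cells (log2 change 3.07, SE 0.15, edgeR adjusted p = 1.41e-06). Run 1 was the highest of the rod-high classes for both genes and the lowest of the low-Gngt1 classes, and the classes did not overlap. The share of all tested genes without overlap is not given here. Pdc, a photoreceptor protein that binds transducin beta and gamma subunits, stood at 600 CPM in run 1 but 280 and 328 CPM in runs 2 and 3 in rod-high cells, against 38.7, 39.9 and 41.5 CPM in low-Gngt1 cells. Its change was 3.19 (edgeR adjusted p = 2.93e-06).

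**Figure D1:**
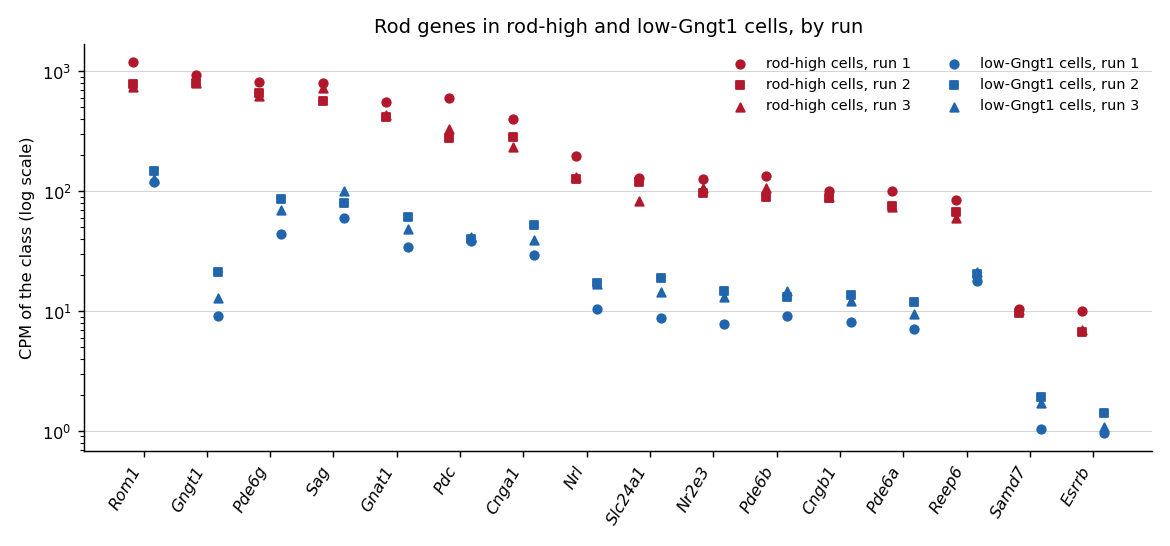
CPM (log scale) of rod-list genes in rod-high cells (red, left) and low-Gngt1 cells (blue, right), 1 point per run. The classes do not overlap for any gene shown, and Gngt1 set the classes. They also did not overlap for some genes outside the rod list, such as Crym and Sox4, which were lower in rod-high cells.

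Further down the phototransduction chain, the phosphodiesterase genes Pde6g, Pde6a and Pde6b rose by 3.36, 3.06 and 3.08 (log2), and the channel genes Cnga1 and Cngb1 by 2.84 and 2.97. Nrl and Nr2e3, the transcription factors that set rod identity, rose by 3.28 and 3.16. Nrl stood at 197, 126 and 132 CPM in rod-high cells, against 10.5, 17.2 and 16.7 CPM in low-Gngt1 cells. Rom1, an outer segment disc protein, rose by 2.69, and the exchanger gene Slc24a1 by 2.93. Apart from Reep6, which rose least, by 1.76, the rod genes lay between 2.65 (Samd7) and 3.36 (Pde6g). The median ratio of rod gene CPM in rod-high to low-Gngt1 cells was 13.9 in run 1, 6.43 in run 2 and 7.26 in run 3. Without run 1 the median change of the rod list was 2.73 (log2).

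Genes that rods share with cones moved with them. All 19 of the shared photoreceptor list rose, with a median change of 2.97. Rcvrn, the calcium sensor recoverin, rose most of all named genes, by 3.44, with 342, 254 and 252 CPM in rod-high cells, against 17.1, 30.2 and 27.8 CPM in low-Gngt1 cells. Prph2, a disc rim protein, rose by 2.95, Rbp3, a retinoid carrier between photoreceptors and their neighbours, by 2.85, and Unc119 by 1.96. Guca1b, an activator of guanylate cyclase, rose by 3.23. The 10 largest rises also held Slc17a7, a vesicular glutamate transporter (3.16), Nxnl2 (3.16) and Platr17 (3.33). Of genes picked after their values were seen, the photoreceptor transcription factor Crx rose by 2.87 and Otx2 by 2.40, and Edn2, an endothelin that photoreceptors make after injury in mice, by 2.48 (edgeR adjusted p = 0.000107).

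Counts were smaller for the genes of other retinal neurons. In the cone list, 4 of 9 tested genes rose, 0 fell and 5 did not pass, with a median of 0.70. Gnb3, a transducin beta subunit of cones and bipolar cells, rose by 2.16, and stood at 55.0, 51.9 and 51.1 CPM in rod-high cells, against 9.73, 11.1 and 12.9 CPM in low-Gngt1 cells. In the bipolar list 0 of 4 rose and 2 fell, and in the amacrine list 0 of 3 passed the test. The ganglion list had 2 that rose and 1 that fell of 6. None of the 4 horizontal cell genes had enough counts to test.

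Rod transcripts followed Gngt1 in steps. Over bins of Gngt1 of under 1, 1 to 5, 5 to 10, 10 to 20 and at least 20 per 10000, the rod list without Gngt1 averaged 592, 2436, 5859, 9245 and 14019 CPM over the 3 runs. The Müller list averaged 24803, 32551, 35587, 34672 and 34366 CPM over the same bins, and the bipolar list 35.4, 33.5, 32.6, 35.3 and 46.2 CPM. The bin under 1 holds cells at any Igfbp2. With Igfbp2 under 2, as in low-Gngt1 cells, its Müller list averaged 37210 CPM, with 41248, 35713 and 34669 CPM in runs 1, 2 and 3. The other bins were not limited on Igfbp2, so their values are not a like comparison with it. In run 2 the bins at 5 to 10 and 10 to 20 held 35996 and 37853 CPM. The top bin held 33, 9 and 8 cells. The levels are a description, since the bins are cut on Gngt1.

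**Figure D2:**
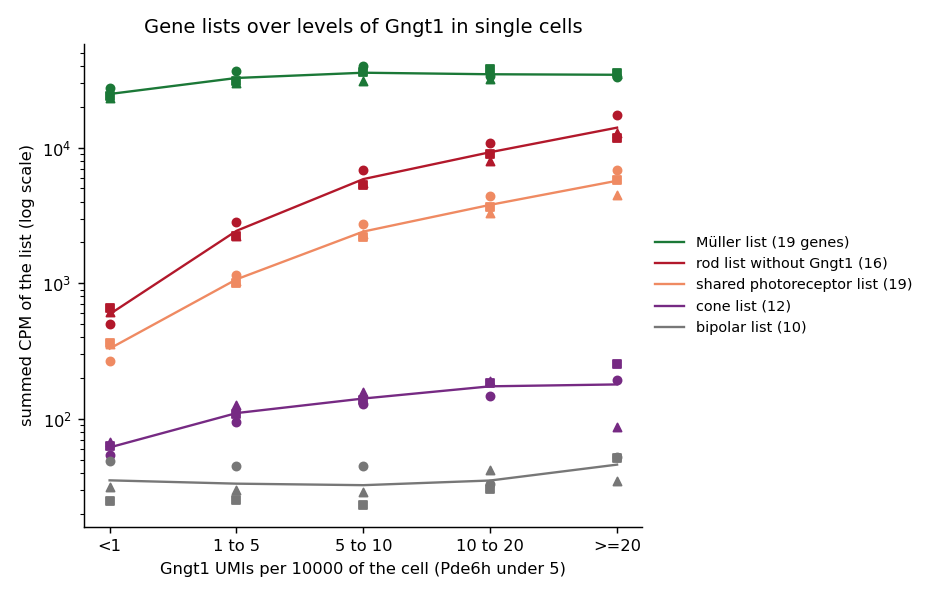
Summed CPM (log scale) of 5 gene lists in cells binned by Gngt1 UMIs per 10000. Lines join the means of the 3 runs, and circles, squares and triangles are runs 1, 2 and 3. The rod and shared photoreceptor lists climb over every bin, while the Müller list has means of 24803 to 35587 CPM and single runs of 23006 to 39932 CPM.

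The make-up of the rod transcripts in rod-high cells was set beside that in other sets of cells. Sag made up 10.4% ± 1.41 of the rod-list UMIs other than Gngt1 in rod-high cells and 10.1% ± 1.82 in low-Gngt1 cells (SD, n = 3 runs each). Gnat1 made up 6.95% ± 0.303 in rod-high cells and 5.99% ± 0.564 in low-Gngt1 cells. The largest difference in points was 3.54, for Rom1, at 13.3% in rod-high and 16.9% in low-Gngt1 cells. Relative to its share, Reep6 differed more, at 1.05% ± 0.0772 in rod-high and 2.54% ± 0.320 in low-Gngt1 cells, and the classes did not overlap. In cells with at least 2 UMIs per 10000 of the microglia list the share of Gnat1 was 6.96% ± 1.58, and in those with at least 2 of the astrocyte list 6.50% ± 0.318. The set with at least 2 of the astrocyte list also held Müller list transcripts at 40073 CPM, so it is not a set of astrocytes alone. Rod-high cells were not taken out of the sets at 2 of either list, so the shares are partly of the same cells. Of the 538, 415 and 498 rod-high cells in runs 1, 2 and 3, 496, 386 and 476 were in neither set. At 10 per 10000, a limit chosen after the data were seen, the shares of Gnat1 were 6.17% ± 1.43 and 5.71% ± 1.08. In cells with cone transcripts (Pde6h at least 5, Gngt1 under 5) the share was 5.16% ± 0.235.

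The listed rod genes were a small part of the UMIs of rod-high cells, as were the listed Müller genes. The part of all RNA that came from rods was not estimated. The rod list made up 0.930%, 0.667% and 0.678% of the UMIs of rod-high cells in runs 1, 2 and 3, and 4.24% in the highest single cell. The Müller list made up 3.81%, 3.62% and 3.11%. Every rod-high cell had at least 1 UMI of a rod gene other than Gngt1. Of the 1451, 1 cell had 0 UMIs of Glul, Rlbp1 and Apoe together, as had 4 of the 9837 low-Gngt1 cells.

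Müller markers were present in rod-high cells, and some members of the list fell. Of the 19 genes of the Müller list 0 rose, 8 fell and 11 did not pass, with a median change of -0.09. Glul, glutamine synthetase, stood at 2348, 2038 and 1611 CPM in rod-high cells, against 2087, 1614 and 1568 CPM in low-Gngt1 cells, a change of 0.11 (edgeR adjusted p = 0.143). Apoe, the main glial lipid carrier, changed by 0.18 (edgeR adjusted p = 0.0771). Rlbp1 fell by 0.32, with 1454, 1418 and 1217 CPM in rod-high cells, against 1784, 1487 and 1568 CPM in low-Gngt1 cells (edgeR adjusted p = 0.00151). Crym, a thyroid hormone binding protein, changed by -0.65, Vim, an intermediate filament protein, by -0.39, and Clu by -0.16. When rod-high cells were also held to Igfbp2 under 2, 7 Müller genes rose and 5 fell, where 1243 of all genes were higher and 1624 lower. Among the 39, 58 and 76 rod-high cells that the authors' normalized table holds, 0 of 18 rose and 15 fell, with a median of -0.55 and Glul at -0.79. Over all genes this choice of cells gave 1264 higher and 1114 lower. The table held 7.25%, 14.0% and 15.3% of all rod-high cells in runs 1, 2 and 3. Of those with Igfbp2 under 2 it held 4.89%, 10.2% and 9.13%. Its rod-high cells thus had Igfbp2 at 2 or more relatively often, while its low-Gngt1 cells had none by the rule. The part of Igfbp2 in these falls was not tested.

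Total UMIs were lower in rod-high cells. The limits on Gngt1 are shares of a cell's total UMIs, so this difference is not independent of the rule that chose the cells. The median cell held 8353, 8975 and 7904 UMIs in rod-high cells of runs 1, 2 and 3, against 8942, 10717 and 8853 in low-Gngt1 cells, a ratio of 0.837 to 0.934. A rod-high cell held 72.9, 55.4 and 51.5 rod-list UMIs other than Gngt1 on average, against 5.96, 10.3 and 7.63 in a low-Gngt1 cell. Glul, Rlbp1 and Apoe together came to 99.9, 113 and 88.4 UMIs in a rod-high cell, against 103, 102 and 94.0 in a low-Gngt1 cell. With every cell thinned to 3500 UMIs, rod-high cells had 1.02 times the genes of low-Gngt1 cells in each run. Mitochondrial UMIs had a median share of 5.75% ± 0.385 in rod-high cells and 5.14% ± 0.481 in low-Gngt1 cells (SD, n = 3 runs each). The part of doublets or of carried-over RNA in the rod transcripts was not tested.

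**Figure D3:**
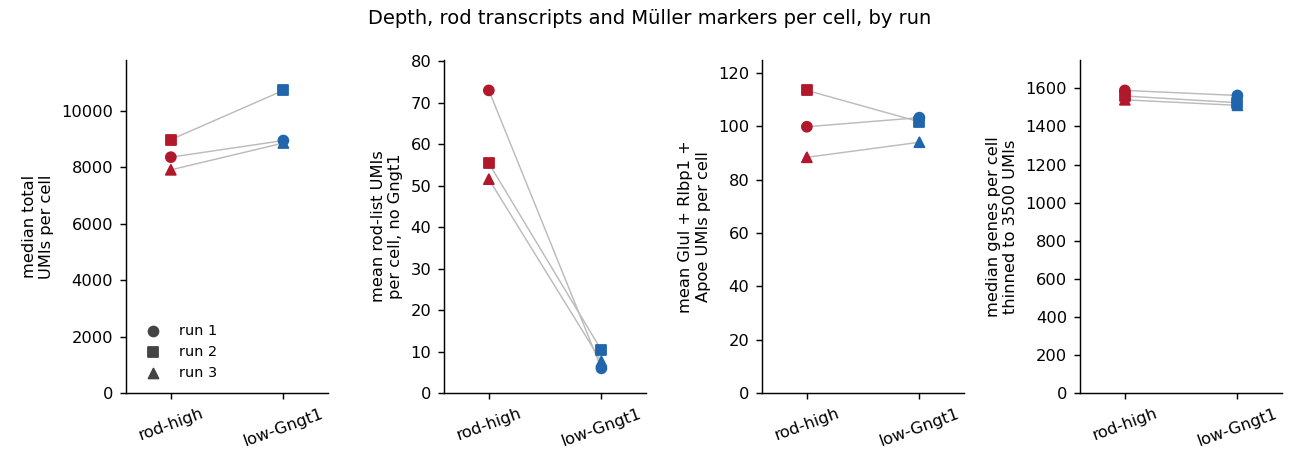
Median total UMIs, mean rod-list UMIs without Gngt1, mean Glul, Rlbp1 and Apoe UMIs, and median genes after thinning, per cell, in rod-high cells (red, left) and low-Gngt1 cells (blue, right). Symbols are runs and lines join the classes of 1 run. Rod UMIs differ by 5.36 to 12.2 times, while the 3 Müller markers differ by 0.940 to 1.12 times.

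Cells with a UMI of a rod gene were found in every class, so shares are given beside those of cells with microglia-list transcripts. Cells with at least 2 UMIs per 10000 of the microglia list also held Müller list transcripts at 18700 CPM, against 10646 CPM of the microglia list (means of 3 runs), so they are not a set of microglia alone. Rod-high cells were not taken out of them. After thinning to 3500 UMIs, Sag was found in 80.9% ± 3.73 of rod-high cells and 20.8% ± 5.10 of low-Gngt1 cells (SD, n = 3 runs each), and in 22.5% ± 12.3 of cells with at least 2 UMIs per 10000 of the microglia list. Gnat1 was found in 74.4% ± 2.92 of rod-high cells, 13.7% ± 3.09 of low-Gngt1 cells and 14.3% ± 5.62 of those microglia-list cells. These microglia-list cells give no background from a type free of Müller transcripts. Without thinning, Sag was in 94.2% ± 0.541 of rod-high cells and 39.9% ± 8.84 of low-Gngt1 cells. It was in 40.7% ± 13.7 of the microglia-list cells, whose median total averaged 9568 UMIs over the runs. At 10 or more UMIs per 10000 of the microglia list there were 43, 23 and 11 cells in runs 1, 2 and 3. Their median rod-list share without Gngt1 was 0.0089%, 0.016% and 0.0081% of UMIs, against 0.022%, 0.061% and 0.054% in low-Gngt1 cells. Sag stood at 31.0, 52.9 and 58.8 CPM in them, against 59.9, 79.1 and 99.9 CPM in low-Gngt1 cells. The cells at 10 or more still held Müller list transcripts at 12802 CPM (mean of 3 runs), and this limit was chosen after the data were seen.

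Rod-high cells were rarer among deep cells. When the cells of a run were put in 5 equal bins by total UMIs, they made up 10.8%, 8.69% and 9.14% of the lowest bin in runs 1, 2 and 3, and in the highest bin 0.913%, 0.341% and 1.28%. The rod UMIs of an average cell were 12.9, 12.7 and 11.1 in the lowest bin and 21.0, 19.7 and 19.9 in the highest. The limit on Gngt1 is a share of the total, so a deep cell needs more Gngt1 UMIs to pass it. Of the cells with Gngt1 at least 5, another 49, 40 and 66 in runs 1, 2 and 3 had Pde6h at 5 or more and were left out by the rule.

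The authors' normalized table held few of the rod-high cells, 12.2% ± 4.30, against 61.5% ± 2.85 of the low-Gngt1 cells (SD, n = 3 runs each). Over the 5 bins of Gngt1 the share averaged 67.7%, 37.5%, 14.4%, 4.38% and 3.70%. Among cells of 8000 to 16000 UMIs the table held 10.9% ± 4.44 of rod-high and 67.2% ± 2.79 of low-Gngt1 cells. How the authors chose the cells of that table is not given in the sources used here.

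**Figure D4:**
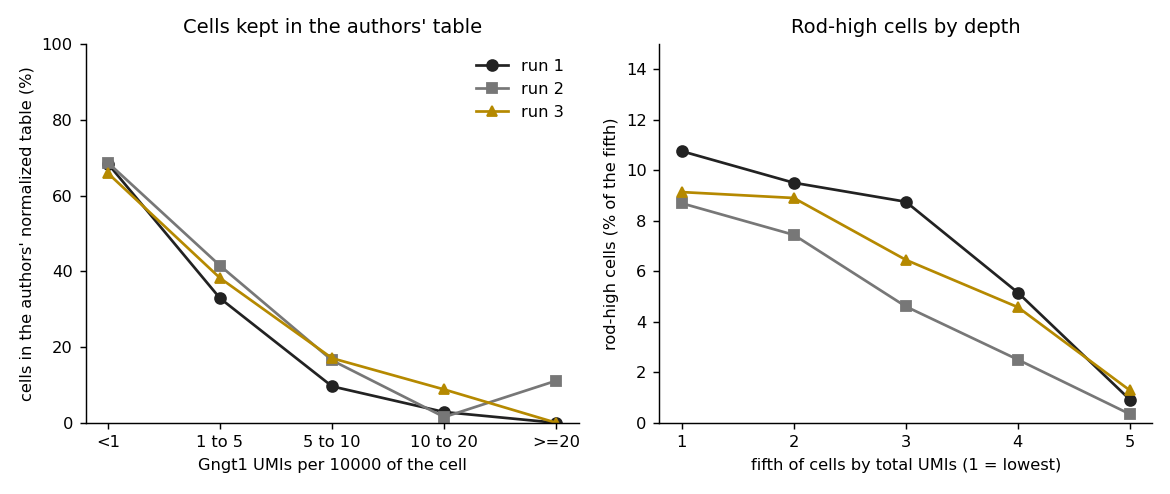
Left, percent of cells that are in the authors' normalized table, by Gngt1 UMIs per 10000 and run. Right, rod-high cells as percent of each of 5 equal bins of cells by total UMIs. Both fall from left to right, apart from the top Gngt1 bin of run 2, which holds 9 cells.

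Beyond photoreceptor genes, the direction of several groups depended on Igfbp2, which the rule limits in low-Gngt1 cells but not in rod-high cells. Igfbp2 was at 2 or more per 10000 in 16.9% ± 6.17 of rod-high cells and, by the rule, in 0 of the low-Gngt1 cells. Of 12 cell cycle genes 9 rose and 0 fell, with a median of 1.16. Birc5, which acts in chromosome segregation, rose by 1.59, and Ccna2, a cyclin of S phase and G2, by 1.78. With rod-high cells held to Igfbp2 under 2, 0 rose and 12 fell, with a median of -0.92, but depth was not matched in this choice. Birc5 was at -1.045 there (edgeR adjusted p = 0.00591). With cells of 8000 to 16000 UMIs only, it was at -0.14 and did not pass (edgeR adjusted p = 0.734). Against low-Gngt1 cells at any Igfbp2 the median of the cell cycle list was -1.99. Of 12 YAP target genes 5 rose and 0 fell, among them Amotl2, which restrains YAP, by 1.06. With Igfbp2 under 2 in rod-high cells 1 rose, and against low-Gngt1 cells at any Igfbp2 1 rose and 9 fell. Over all genes, 1243 were called higher and 1624 lower with Igfbp2 under 2 in rod-high cells. Against low-Gngt1 cells at any Igfbp2, 3170 of all genes were higher and 3711 lower, so calls were common in any list. The rod list had a median of 3.08 and 3.45 under these choices.

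**Figure D5:**
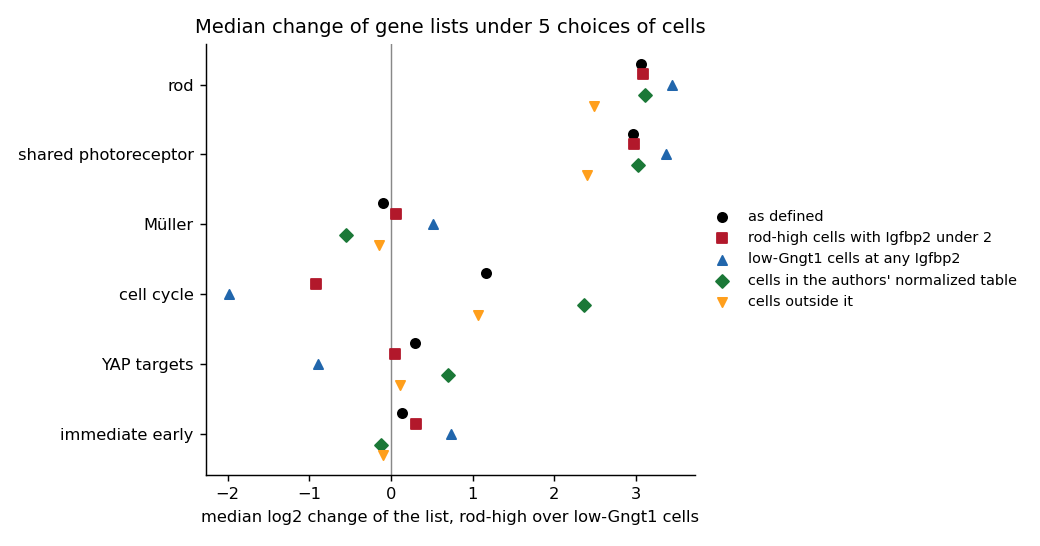
Median log2 change of 6 gene lists, rod-high over low-Gngt1 cells, under 5 choices of cells. The rod list lies between 2.49 and 3.45 throughout, while the cell cycle list lies on both sides of 0, from -1.99 to 2.36.

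Over all tested genes, 10.2% were called higher and 9.65% lower in rod-high than in low-Gngt1 cells. Of 18 immediate early and stress genes 9 rose and 1 fell, among them Junb by 0.30 and Btg2 by 0.24. Of these, 0 rose and 3 fell among cells that the authors' table does not hold, where 908 of all genes were higher and 687 lower. Of 11 tested neurogenic genes 4 rose and 2 fell. Neurod1, which is also active in photoreceptors, rose by 2.55, with 93.4, 73.6 and 75.8 CPM in rod-high cells, against 8.28, 19.7 and 12.9 CPM in low-Gngt1 cells. Gadd45g, a growth arrest gene, rose by 0.58. Neurog2, a proneural factor, changed by -1.18 and Sox4 by -0.64. Of 21 phagocytosis and lysosome genes 2 rose and 9 fell. Ctsd, a lysosomal protease, was at -0.52 and Mfge8, a bridge to phosphatidylserine on dying cells, at -0.50. Low-Gngt1 cells held this list at 3934 CPM (mean of 3 runs). They included 37, 18 and 10 cells with at least 10 UMIs per 10000 of the microglia list, and cells at that limit held it at 16322 CPM.

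The largest falls were of microglial genes. Of 8 tested microglia genes 6 fell. C1qa, a complement subunit, stood at 0.853, 0.256 and 0 CPM in rod-high cells, against 85.4, 19.6 and 3.92 CPM in low-Gngt1 cells. The changes were -6.48 for Spp1 and -6.09 for Lyz2. At 10 or more UMIs per 10000 of the microglia list, low-Gngt1 cells held 37, 18 and 10 cells and rod-high cells 0 of 1451. Counting error alone allows a share of up to 0.207% (95% limit), which takes cells as independent and leaves out the spread between runs. Without the cells at 10 or more, 0 of 3 tested microglia genes passed. Spp1 then changed by -0.86 (edgeR adjusted p = 0.0931) and Lyz2 by 0.24 (edgeR adjusted p = 0.788). Of vessel markers, 1 of 4 tested endothelial genes fell (Cldn5, -4.93), as did 1 of 2 pericyte genes (Rgs5, -1.92). The summed endothelial list stood at 596, 690 and 668 CPM in rod-high cells, against 705, 684 and 708 CPM in low-Gngt1 cells. The pericyte list stood at 25.8, 24.0 and 21.0 CPM, against 58.1, 23.4 and 20.7 CPM. The single tested red cell gene also fell (Hba-a1, -4.81). Hba-a1 stood at 0.213, 0.256 and 0.699 CPM in rod-high cells, against 29.7, 0.209 and 0.981 CPM in low-Gngt1 cells. Without run 1 Cldn5 changed by -2.55, and Hba-a1 (-0.39) and Rgs5 (-0.93) did not pass, nor did Hba-a1 in DESeq2 or any of these genes without the run as block. Among genes of at least 20 CPM on average, the other large falls were Cdsn (-2.10), the chemokine genes Ccl7 (-1.73) and Ccl2 (-1.38), Hmga2, a chromatin protein (-1.37), Gpd1 (-1.09), Kitl, the ligand of Kit (-1.09), and Upp1 (-1.01), with Rsad2, an interferon-induced gene, at a ratio of 0.498. Ccl2 stood at 10.9, 147 and 45.7 CPM in rod-high cells, against 22.8, 680 and 44.5 CPM in low-Gngt1 cells, so the classes were level in run 3, and without run 2 its change was -0.42 and did not pass.

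Rod-high cells were also set against the 216 cells with cone transcripts. These classes were cut on the rod gene Gngt1 and the cone gene Pde6h, which were left out of the test. The p-values of other rod and cone genes are therefore not independent evidence that the classes differ in them. Of 10674 genes tested, 107 were called higher (1.0%) and 199 lower (1.86%). In the rod list 14 of 16 rose, with a median of 1.56. Gnat1 stood at 552, 414 and 430 CPM in rod-high cells, against 201, 122 and 124 CPM in cone-transcript cells (log2 change 1.74, edgeR adjusted p = 1.8e-12). Nrl rose by 1.66. Sag and Pde6g differed less, by 0.83 and 0.77. Samd7 (-0.34) and Esrrb (1.87) did not pass.

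All 10 tested cone genes fell between these classes, which the cone gene Pde6h had helped to set. Arr3, cone arrestin, stood at 1.28, 1.53 and 1.86 CPM in rod-high cells, against 179, 140 and 122 CPM in cone-transcript cells (log2 change -6.45, edgeR adjusted p = 1.81e-17). The cone opsins Opn1mw and Opn1sw changed by -6.18 and -5.63, and Pde6c, Gngt2 and Gnat2 by -6.09, -5.26 and -5.24. In the shared photoreceptor list 7 rose and 4 fell of 19, with Prph2 at 0.98, Rbp3 at -0.48 and Tulp1 at -0.49. Neurod1 fell by 1.00. Of 18 tested Müller genes 8 rose and 0 fell, with Rlbp1 at 1454, 1418 and 1217 CPM in rod-high cells, against 1063, 904 and 972 CPM in cone-transcript cells (log2 change 0.53, edgeR adjusted p = 6.74e-05).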

How the data were processed

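UMI counts per gene and cell were deposited by the authors. Per the submitters' processing notes, Cell Ranger, Seurat 2.3.4 and mm10 were used. A deposited table of natural log values, ln(1 + 10000 × count / total), holds 13511 of the 24695 cells, and was used only to see which cells it holds. The cell filter asked for 500 genes or more and no more than 20% mitochondrial UMIs. Doublets were not called. Counts added up per class and run went through filterByExpr and TMM scaling in edgeR 4.0.16 (R 4.3.3), whose quasi-likelihood test took the run as block. Both classes of a run come from 1 library, which is where the pairing comes from. DESeq2 1.42.0, other scaling, filters, cell choices and leaving out each run were alternatives. The method was tested on simulated data.

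Named genes were the 10 largest rises and falls among called genes of at least 20 CPM with 1 direction in every run (without class-setting, ribosomal, mitochondrial and unnamed genes), the rod list, up to 4 called genes per list and 11 set genes, of which a selection is printed, and 1 item is not reported here. The members and lists were chosen with earlier results of these data known. The limit of 10 UMIs per 10000 for microglia- and astrocyte-marked cells was chosen after the data were seen, where the planned limit was 2. Counting error alone sets the limit given for a count of 0.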

Additional observations from a re-analysis of the deposited data

How the results depend on the processing

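All 16 tested rod genes were called higher under each of 21 alternatives, with medians of 2.29 (cells thinned to 3500 UMIs) to 3.62 (Gngt1 at least 10). Against low-Gngt1 cells, 1356 genes were higher and 1286 lower. DESeq2 gave 901 and 690, and the fit without the replicate block 675 and 91. Thinned cells gave 745 lower and Gngt1 at least 10 gave 741 and 572. Of choices added after seeing the data, low-Gngt1 cells at any Igfbp2 gave 3170 and 3711, and 687 were lower among cells outside the authors' table. Leaving out 1 run gave 1075 to 1180 higher and 798 to 994 lower, the fewest without run 1. Against cone-transcript cells, 107 were higher and 199 lower. No low-count filter gave 164 higher, DESeq2 27 and 90, no replicate block 19 and 90, and leaving out 1 run 47 (without run 3) to 111 higher and 137 to 228 lower. Rod-high cells made up 1.44% at Gngt1 at least 10 and 1.28% among the authors' cells.

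These genes changed sign, some without passing the test in the alternative, and the cause was not tested. Those that did not pass there were Birc5 with the depth window, Clu with Igfbp2 under 2, Mfge8, Spp1 and Ccl2. Lyz2 did not pass in either choice, nor did Btg2 and Junb outside the authors' table. With rod-high cells held to Igfbp2 under 2, Birc5 was -1.04, Ccna2 -0.79 and Clu 0.058, and with the depth window as well Birc5 was -0.14. Against low-Gngt1 cells at any Igfbp2, Amotl2 was -0.96, Birc5 -1.87, Ccna2 -2.01, Clu 0.71, Crym 0.18, Mfge8 0.10 and Rlbp1 0.46. Among the authors' cells, Apoe was -0.54, Btg2 -0.48, Glul -0.79, Junb -0.35 and Spp1 1.28. Outside the authors' table, Btg2 was -0.055 and Junb -0.015. Without astrocyte- or microglia-marked cells Lyz2 was 0.36, and without the stricter microglia-marked cells 0.24, where those cells had carried the counts. Against cone-transcript cells, Ccl2 was -1.59 with all runs and 0.032 without run 2, in a range to -2.21 without run 3.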
